A study of Mus musculus with 23 samples.

Results

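The potassium channel and PDGF signalling genes of brain pericytes are described here across cell classes, treatments and sorting bins: Pdgfb, Pdgfrb, Rgs5, Kcnj8, Abcc9, Notch3 and Anpep. They were chosen by symbol, and all 7 were found among the 32285 genes of the deposited matrix. Pdgfb (ENSMUSG00000000489) encodes the ligand platelet-derived growth factor B, and Pdgfrb (ENSMUSG00000024620) its receptor PDGFRβ. Rgs5 (ENSMUSG00000026678) encodes a regulator of G protein signalling. Kcnj8 (ENSMUSG00000030247) and Abcc9 (ENSMUSG00000030249) encode Kir6.1 and SUR2, the pore and the regulatory subunit of the ATP-sensitive potassium (KATP) channel of vascular cells. Notch3 (ENSMUSG00000038146) encodes a Notch receptor, and Anpep (ENSMUSG00000039062) the cell surface peptidase CD13.

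Mice received 45 mg/kg of an AF647-labelled antibody into the tail vein, and brains were taken 24 hours later. The antibodies were ATV-TfR, which binds the transferrin receptor and was given to TfR mu/hu KI mice, ATV-CD98hc, which binds CD98hc and was given to CD98hc mu/hu KI mice, and a control IgG given to C57BL/6 mice. ATV is short for antibody transport vehicle, an antibody built to be carried across brain capillaries by the receptor it binds. All 3 antibodies carry the LALAPG change of the Fc part, all carry AF647, and the ATV-CD98hc molecule is called monovalent in the labels. The mice were 3.3 months old per the labels (12 weeks in the design text) and were perfused with PBS. Olfactory bulbs, cerebellum, pons and medulla were left out, and the brains were dissociated with actinomycin D and anisomycin present. Live cells were sorted by AF647 into negative, low, medium and high bins, with gates set on the tertiles of positive cells of ATV-TfR mice. A library holds 1 bin of 1 pool of 1 male and 1 female mouse. There were 2 pools per treatment and 23 libraries, since of the control IgG negative bins pool 2 alone was analysed here. Treatment and genotype coincide, so their effects cannot be told apart.

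Pericytes are the mural cells of capillaries, embedded in the basement membrane that they share with endothelial cells. Endothelial cells secrete PDGF-B, which is held near the vessel wall and acts on PDGFRβ of pericytes, and mice that lack either protein lose brain pericytes. Opening of KATP channels hyperpolarizes mural cells, while Notch3 receives signals from ligands on neighbouring cells and is needed for arterial smooth muscle.

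The 2 channel genes lie side by side on the minus strand of chromosome 6 in GRCm38. Kcnj8 spans chr6:142564837-142571614 and Abcc9 chr6:142587862-142702315, with 16247 bases and 0 annotated genes between them. The other members lie apart, with Rgs5 on chromosome 1 (169655501-169695813, plus strand) and Anpep on chromosome 7 (79821803-79861059, minus strand). Pdgfb is on chromosome 15 (79995874-80014977, minus strand) and Notch3 on chromosome 17 (32120820-32166852, minus strand). The promoters of Kcnj8 and Abcc9 are printed because their RNA levels followed each other closely across cell classes. They come from RefSeq (GRCm38.p6), where 5 of the 7 members had an entry, and run from 250 bases upstream to the gene start, with Abcc9 shortened to where its gene begins. Capitals mark matches to the motifs searched on both strands.
Kcnj8, chr6:142571615-142571864, minus strand: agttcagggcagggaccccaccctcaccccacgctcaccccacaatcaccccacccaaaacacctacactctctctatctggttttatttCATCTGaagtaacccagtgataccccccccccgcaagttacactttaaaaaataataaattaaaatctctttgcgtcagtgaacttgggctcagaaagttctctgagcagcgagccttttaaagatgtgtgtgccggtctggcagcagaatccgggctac
Abcc9, chr6:142702316-142702524, minus strand: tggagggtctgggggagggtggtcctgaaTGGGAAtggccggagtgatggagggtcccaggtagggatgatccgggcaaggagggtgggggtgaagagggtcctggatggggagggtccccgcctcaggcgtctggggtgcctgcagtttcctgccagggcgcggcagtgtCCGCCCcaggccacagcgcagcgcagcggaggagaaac
The capitals are an E-box (CANNTG) in Kcnj8, and an RBPJ motif (TGGGAA) and a GC box (CCGCCC) in Abcc9. Of 32851 mouse promoters, 66.2% hold an E-box, 21.6% an RBPJ motif and 32.7% a GC box in the same 250 bases, so each match is common. Neither sequence held the forkhead motif TGTTTAC (3.17% of promoters), the early B-cell factor motif (0.78%), the TATA box TATAAA (12.4%) or a CArG box (1.47%). The 2 promoters also differ in base composition, with a GC content of 49.2% and 6 CpG in Kcnj8 and of 68.4% and 10 CpG in Abcc9. Abcc9 also holds an E-box (CAGCTG) at -27 to -22 from the RefSeq start, past the printed bases. No promoter motif of the list was found in Rgs5, while Notch3 held 4 GC boxes and Anpep 3 E-boxes and 3 GC boxes. The Anpep window (chr7:79848161-79848460) follows the RefSeq start and lies inside the gene span given above. These matches are letters in a window and say nothing of binding.

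The libraries held 519 to 19342 cells after filtering, 234026 in all, with a median of 2178 to 4873 unique molecular identifiers (UMIs) per cell. A UMI stands for 1 captured RNA molecule, and levels are UMIs per 1000000 UMIs of the cells concerned (CPM). Of the kept cells, 5.75% shared a barcode sequence with a cell of another library, at most 0.963% of the smaller library in any pair of libraries. Cells were clustered and named from marker genes, with the 7 members left out of both steps. The pericyte-like class, 4019 cells, had all 10 pericyte markers, among them Vtn, Higd1b, Atp13a5 and Ndufa4l2. It is set beside 97719 endothelial-like, 91930 astrocyte-like, 11048 microglia-like, 7416 oligodendrocyte-like and 4550 choroid plexus epithelial-like cells. Smaller classes were 3304 border macrophage-like, 2923 fibroblast-like, 2229 smooth muscle-like and 856 ependymal-like cells, and 5402 barcodes stayed unnamed. A further cluster of 2630 barcodes detected all 10 pericyte and 11 of 12 endothelial markers and is called mixed. Its median depth was 6287 UMIs, against 2554 in pericyte-like and 3349 in endothelial-like cells.

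Pdgfb, the ligand, was highest in endothelial-like cells at 382 ± 26.8 CPM (SD, n = 6 pools). With mixed barcodes (248 ± 29.4 CPM) left aside, microglia-like cells came next at 172 ± 12.3 CPM (n = 6). Border macrophage-like cells read 134 ± 22.5 CPM (n = 6), a range that overlapped that of microglia-like cells. Smooth muscle-like cells at 31.0 ± 9.71 CPM and pericyte-like cells at 21.0 ± 10.5 CPM (n = 5 each) stood far lower. The microglial level is thus a sizeable fraction of the endothelial one, with a ratio of means of 2.22, while the endothelial to pericyte-like ratio was 18.2. A UMI of Pdgfb was found in 70.3% of endothelial-like and 35.8% of microglia-like cells. In the classes that gave the lowest shares it was found in 0.51% of astrocyte-like cells (median depth 3951 UMIs) and 0.89% of oligodendrocyte-like cells (5718 UMIs), against 4.40% of pericyte-like cells (2554 UMIs).

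Pdgfrb, the receptor, was highest in pericyte-like cells at 1858 ± 74.8 CPM (n = 5), 4.43 times the smooth muscle-like level of 419 ± 37.2 CPM (n = 5). Fibroblast-like cells followed at 285 ± 50.1 CPM (n = 6), and the pools of these 3 classes did not overlap. Astrocyte-like cells held a low level of 90.1 ± 3.36 CPM (n = 5) with little spread. Since they are many among the sorted cells, they gave 41.6% of all Pdgfrb UMIs of the series, against 24.2% for pericyte-like and 17.7% for mixed barcodes. Such shares depend on the bins sorted, and in the control IgG negative library they were 33.7% for astrocyte-like and 37.5% for pericyte-like cells. A Pdgfrb UMI was seen in 28.9% of astrocyte-like (median 3951 UMIs), 0.67% of microglia-like (2856 UMIs) and 2.44% of oligodendrocyte-like cells (5718 UMIs). It was seen in 3.45% of choroid plexus epithelial-like (7895 UMIs) and 6.43% of ependymal-like cells (6478 UMIs). The part of stray RNA in these shares was not tested.

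Kcnj8 and Abcc9, the channel genes, set pericyte-like cells apart from smooth muscle-like cells more than any other member. Kcnj8 read 1363 ± 204 CPM in pericyte-like and 26.8 ± 9.92 CPM in smooth muscle-like cells, a ratio of 50.9, and Abcc9 read 1396 ± 173 and 34.0 ± 19.4 CPM, a ratio of 41.1 (n = 5 pools each). Pdgfrb, Rgs5 and Notch3 gave ratios of only 4.43, 3.01 and 1.20 between the same classes. Outside mural and mixed barcodes Kcnj8 was low, with 11.4 ± 3.78 CPM in fibroblast-like, 3.34 ± 1.09 CPM in endothelial-like and 0.19 CPM in astrocyte-like cells. Abcc9 reached 43.7 ± 16.6 CPM in fibroblast-like cells, a range that overlapped that of smooth muscle-like cells. Both were found in most pericyte-like cells, 86.8% for Kcnj8 and 89.5% for Abcc9, but in 4.80% and 4.35% of smooth muscle-like cells, although these are deeper (median 4919 UMIs). Outside mural, mixed, unnamed and fibroblast-like cells, the share with a UMI ran from 0.07% in astrocyte-like (median 3951 UMIs) to 1.20% in endothelial-like cells (3349 UMIs) for Kcnj8, and from 0.08% to 2.38% in the same classes for Abcc9.

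Smooth muscle-like cells with a channel gene often held the other as well. Among 2167 such cells of at least 1500 UMIs, 4.94% held Kcnj8, 4.48% Abcc9 and 2.49% both, where the product of the 2 shares is 0.221%. In 3681 pericyte-like cells the shares were 89.8%, 91.1% and 82.9%, near their product of 81.8%. All 5 of Pdgfrb, Rgs5, Kcnj8, Abcc9 and Notch3 were found together in 72.4% of pericyte-like cells, 2.49% of smooth muscle-like cells and 0.0519% of endothelial-like cells. In smooth muscle-like cells that share equals the share with both channel genes. Whether these barcodes hold pericytes, alone or captured with smooth muscle cells, was not tested.

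Rgs5, the regulator of G protein signalling, was the member with the most UMIs in pericyte-like cells, at 5550 ± 184 CPM (n = 5). It read 1842 ± 207 CPM in smooth muscle-like cells and 372 ± 80.7 CPM in endothelial-like cells (n = 6). Endothelial-like cells nevertheless gave 50.8% of all Rgs5 UMIs, since they were 41.8% of the kept cells, a share that depends on the bins sorted. In the control IgG negative library they gave 19.9%, against 40% from pericyte-like cells. A Rgs5 UMI was found in 99% of pericyte-like, 30.6% of endothelial-like and 1.78% of microglia-like cells. Relative to 100 UMIs of Pdgfrb, pericyte-like cells held 299 ± 10.8 UMIs of Rgs5 and endothelial-like cells 7627 ± 1080. Endothelial Pdgfrb itself was low, at 4.99 ± 1.46 CPM, and the part of mural RNA in endothelial Rgs5 was not tested.

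Notch3 was nearly as high in smooth muscle-like as in pericyte-like cells, 847 ± 78.0 against 1015 ± 48.2 CPM (n = 5 each), without overlap of the pools. Astrocyte-like cells held 52.0 ± 6.24 CPM and 38% of all Notch3 UMIs, the largest share of any class over the sorted libraries. In the control IgG negative library they gave 25.2%, against 33.8% from smooth muscle-like cells. Notch3 was found in 93.4% of smooth muscle-like, 87% of pericyte-like and 17.0% of astrocyte-like cells. Anpep was shared with another class, with 192 ± 5.31 CPM in pericyte-like cells (n = 5) and 95.8 ± 8.72 CPM in fibroblast-like cells (n = 6), and it read 6.97 ± 2.16 CPM in smooth muscle-like cells. CD13 RNA thus separated pericyte-like from smooth muscle-like cells by a ratio of 27.5 but from fibroblast-like cells by 2.00. Cells were clustered on the genes of the same cells, so these differences between classes are given as a description.

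**Figure D1:**
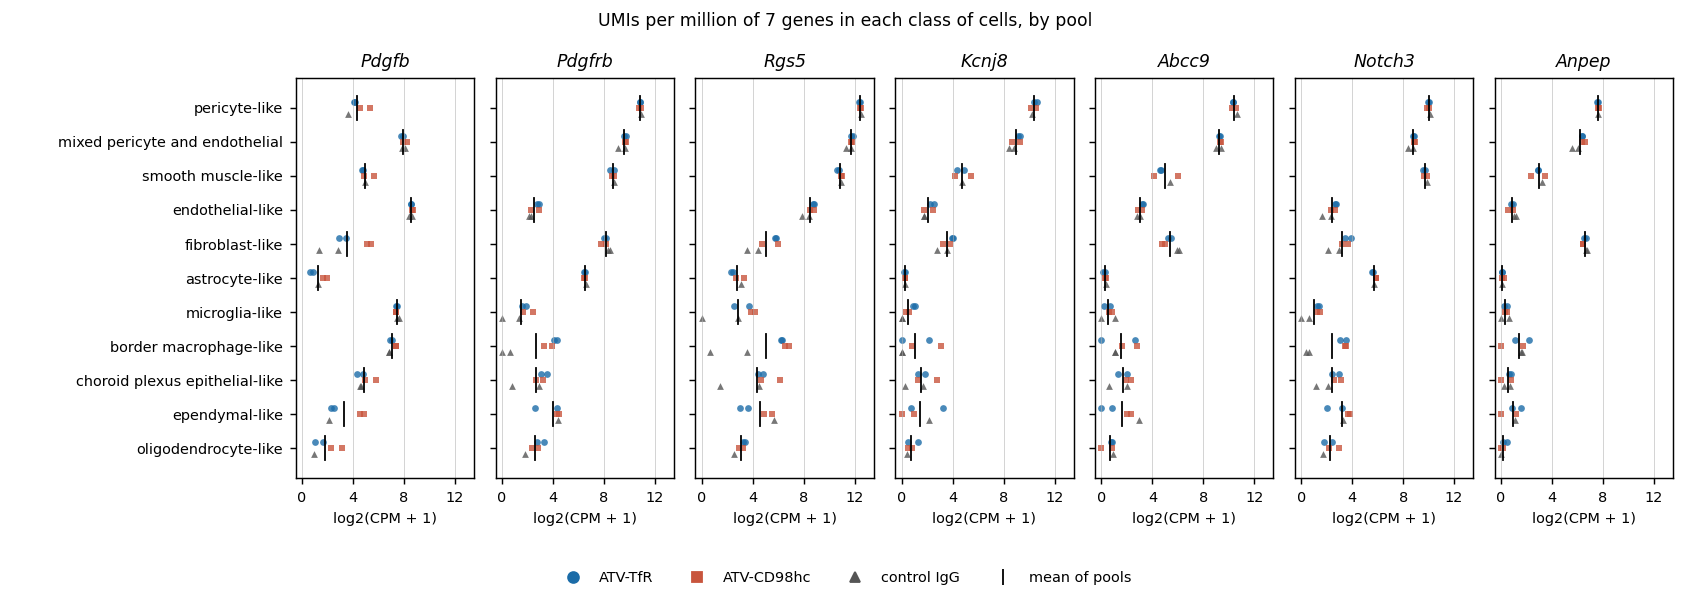
Level of each of the 7 genes by cell class as log2(CPM + 1). Points are pools, by treatment, and the vertical bar is their mean. Pdgfb peaks in endothelial-like cells and the other 6 genes in pericyte-like cells, and Kcnj8 and Abcc9 drop furthest between pericyte-like and smooth muscle-like cells.

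Across 61 combinations of class and pool, Abcc9 was among the 3 genes most like Kcnj8, with a Pearson correlation of log2(CPM + 1) of 0.965, and Kcnj8 was the gene most like Abcc9. Another neighbour of Kcnj8 was Nodal (0.958), and those of Abcc9 were Ankrd50 (0.954) and Enpep (0.954), which encodes aminopeptidase A. Notch3 was most like Heyl (0.985), a target gene of Notch signalling, then Serpini1 (0.956) and Ano1 (0.945), a calcium-activated chloride channel. Pdgfrb was most like Pth1r (0.971), Pcdh18 (0.956) and Gucy1a2 (0.955). Rgs5 was nearest to the thromboxane receptor gene Tbxa2r (0.970), Higd1b (0.955) and Gjc1 (0.946), Anpep to Pla1a (0.967), Rem1 (0.964) and Tmem45a (0.962), and Pdgfb to Lmo2 (0.939), Grap (0.937) and Cracr2b (0.928). Ligand and receptor did not follow each other, with a correlation of -0.16 between Pdgfb and Pdgfrb. The points share libraries and classes, Pth1r and Higd1b helped to name the pericyte-like class, and the correlations are descriptions.

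In whole bins, that is over all kept cells of a library, the ATV high bins held more Pdgfb and less Pdgfrb, Notch3, Kcnj8 and Abcc9 than the negative bins. Fewer cells of a type and less RNA per cell cannot be told apart in such sums. Pdgfb read 50.5 and 42.0 CPM in ATV-TfR negative pools 1 and 2 and 324 and 346 CPM in the high ones. In ATV-CD98hc it went from 20.4 and 17.4 CPM to 351 and 383 CPM. High and negative libraries lay far apart under both ATVs. The log2 difference was 3.16 (SE 0.21, adjusted p = 1.25e-09) for ATV-TfR and 4.53 (SE 0.23, adjusted p = 3.37e-11) for ATV-CD98hc. In control IgG, Pdgfb read 93.7 CPM in the negative and 82.8 and 68.6 CPM in the high libraries (log2 difference -0.37, SE 0.25, adjusted p = 0.268).

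Pdgfrb moved the other way. It read 202 and 201 CPM in ATV-TfR negative and 63.3 and 57.5 CPM in ATV-TfR high libraries, and 137 and 169 CPM against 33.6 and 45.3 CPM in ATV-CD98hc. Neither pair of groups overlapped, and the log2 differences were -1.44 (SE 0.18, adjusted p = 1.98e-06) and -1.69 (SE 0.18, adjusted p = 3.13e-07). Notch3 fell from 163 and 165 to 37.7 and 30.6 CPM in ATV-TfR and from 100.9 and 114 to 19.1 and 25.8 CPM in ATV-CD98hc, with log2 differences of -1.97 (SE 0.25, adjusted p = 3.26e-06) and -1.99 (SE 0.26, adjusted p = 3.12e-06). Of the 7 members, 6 were called in ATV-TfR, where 62.4% of all genes tested were called, and 5 in ATV-CD98hc, where 62.6% were. With a background this high the counts say little about the members as a set. The change of Pdgfb differed between the 2 ATVs, the 1 member of 7 for which that test passed (-1.37 for ATV-TfR minus ATV-CD98hc, SE 0.28, adjusted p = 0.00336), a share near the 12.3% of all genes called. It was not called without ATV-CD98hc pool 2 (adjusted p = 0.0811) or ATV-TfR pool 1 (0.154).

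Control IgG gave another picture, with 6 members called against 36.2% of all genes, though its negative group is 1 library. The spread of that group is borrowed from the other groups of the fit, so the lone library is assumed to vary like them, here and in the control IgG tests within classes below. Rgs5 read 359.5 CPM in the negative and 15.5 and 11.3 CPM in the high libraries (-4.84, SE 0.54, adjusted p = 1.95e-06). Notch3 read 93.9 CPM against 3.45 and 6.92 CPM (-4.12, SE 0.40, adjusted p = 3.62e-07), and Kcnj8 40.9 CPM against 4.03 and 1.89 CPM (-3.98, SE 0.73, adjusted p = 3.01e-04). Abcc9, at 57.8 against 12.1 and 15.7 CPM, and Pdgfrb, at 130 against 70.1 and 76.1 CPM, fell less (-2.07, SE 0.29, and -0.88, SE 0.22). Anpep went the other way, from 7.41 CPM to 27.6 and 29.6 CPM (1.90, SE 0.35, adjusted p = 3.25e-04). Both high libraries lay on the same side of the negative library for each of these 6 genes. The high libraries were mostly border macrophage-like, 403 of 519 and 510 of 720 cells, with 1 and 0 pericyte-like and 66 and 97 fibroblast-like cells. The negative library held 34 border macrophage-like, 485 pericyte-like and 78 fibroblast-like of 11255 cells, and the part of this shift in the differences was not tested.

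The channel genes traced a dip over the bins of both ATVs. Kcnj8 read 123 and 94 CPM in ATV-TfR negative, 5.57 and 3.88 in low, 9.86 and 9.75 in medium, and 52.4 and 35.9 in high libraries. In ATV-CD98hc it read 39.2 and 88, 6.17 and 7.16, 19.2 and 35.1, and 14.6 and 31.4 CPM in the same order. Abcc9 had the same course, with 97.1 and 89.4, 4.91 and 4.41, 9.43 and 10.3, and 51.5 and 43.3 CPM in ATV-TfR. Every low library of the ATVs thus lay below every negative and high library of the same ATV for both genes. High minus negative was -1.0 for Kcnj8 (SE 0.39, adjusted p = 0.0326) and -0.68 for Abcc9 (SE 0.20, adjusted p = 0.00818) in ATV-TfR, and -1.17 (SE 0.39, adjusted p = 0.0163) and -0.68 (SE 0.21, adjusted p = 0.00883) in ATV-CD98hc.

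The falls kept their direction with any 1 pool left out, but several then missed the threshold. In ATV-TfR, Kcnj8 gave -1.04 without ATV-TfR pool 1 (adjusted p = 0.174) and -0.99 without pool 2 (0.194), each near the full value. Abcc9 gave -0.70 (0.112) and -0.68 (0.119) in the same way. Without control IgG pool 1 or pool 2, which are no part of these differences but share their fit, Kcnj8 gave -0.86 (0.103) and -0.71 (0.160). Abcc9 gave -0.39 without control IgG pool 2 (0.0858). In ATV-CD98hc, Kcnj8 gave -0.90 (0.0865) and Abcc9 -0.42 (0.0685) without control IgG pool 2, and Abcc9 -0.52 without ATV-CD98hc pool 1 (0.0849).

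Rgs5 did not fall with the channel genes. It read 532 and 523 CPM in ATV-TfR negative and 612 and 603 CPM in ATV-TfR high libraries (log2 difference 0.51, SE 0.39, adjusted p = 0.267), and 283 and 352 against 416 and 565 CPM in ATV-CD98hc (0.90, SE 0.39, adjusted p = 0.0548). The log2 differences carry scaling factors (TMM) estimated anew in each fit, and the CPM values do not. The part of these factors in the values that follow was not tested. The high libraries were the higher ones under both ATVs, with no overlap, but neither difference passed the test. It did pass for ATV-CD98hc with the pool as a block (0.87, adjusted p = 0.00786), and for both ATVs without control IgG pool 1 (0.64 and 0.90, adjusted p = 0.0441 and 0.00864) or pool 2 (0.80 and 1.15, adjusted p = 0.0153 and 0.00164). Anpep read 17.5 and 15.8 CPM in ATV-TfR negative and 6.75 and 5.72 CPM in high libraries (log2 difference -1.12, SE 0.25, adjusted p = 9.32e-04). In ATV-CD98hc it read 7.56 and 11.2 against 4.22 and 6.21 CPM (-0.56, SE 0.26, adjusted p = 0.0734). That fall passed with the pool as a block (-0.59, adjusted p = 0.00309) and without ATV-CD98hc pool 2 (-0.71, adjusted p = 0.0247).

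**Figure D2:**
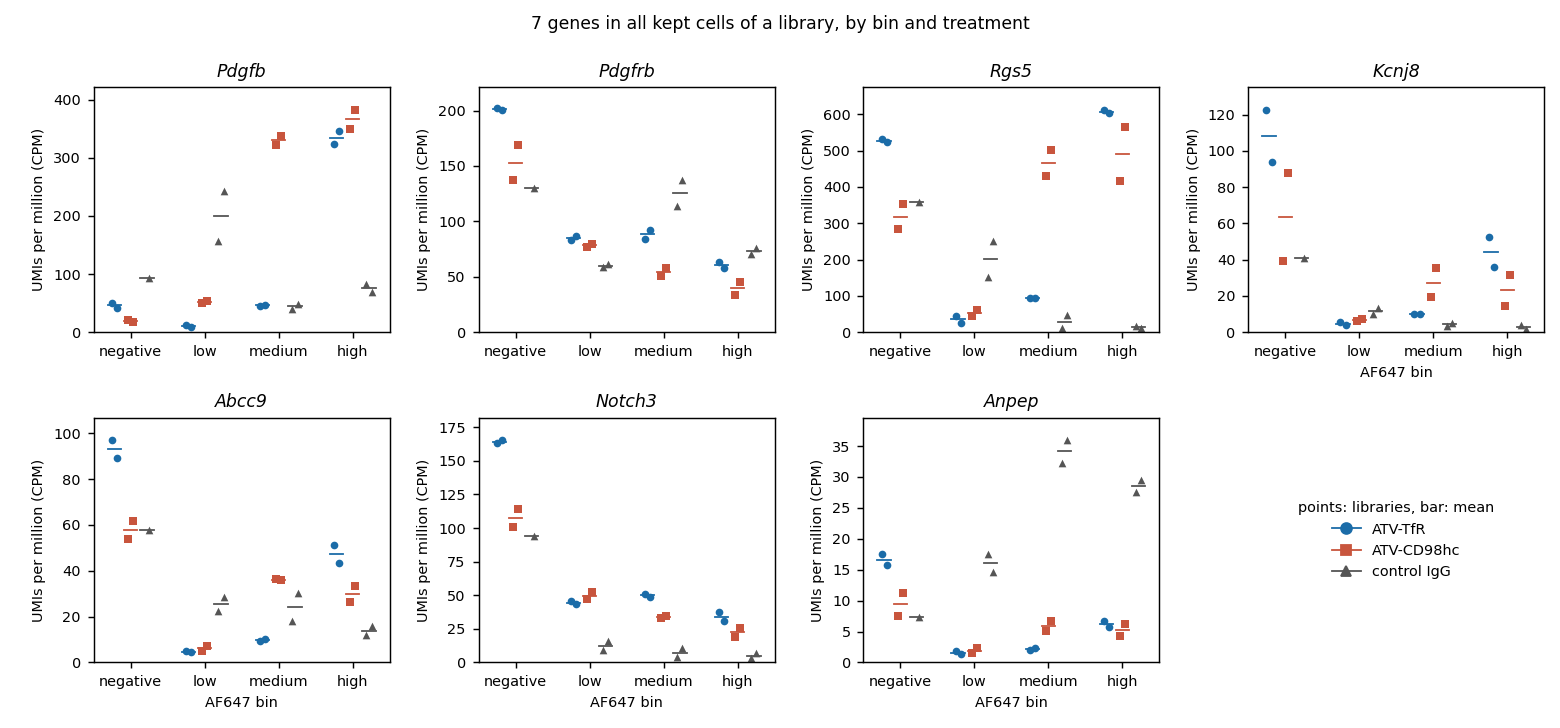
Whole bin level of the 7 genes in CPM, by AF647 bin and treatment. Points are libraries and bars their mean. Pdgfb of the ATVs is highest in the high bins, and Kcnj8 and Abcc9 of the ATVs are lowest in the low bins and higher again in the high bins.

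The makeup of the bins moved with these sums. Pericyte-like cells were 10.9% and 9.88% of the cells in ATV-TfR negative libraries and 1.21% and 0.871% in the high ones, and 5.41% and 8.10% against 0.233% and 0.734% in ATV-CD98hc. The summed CPM of the 12 endothelial markers was 358 to 509 in the ATV negative and 27733 to 29474 in the ATV high libraries, and that of the pericyte and smooth muscle markers 2889 to 8264 and 420 to 1223. The control IgG negative library read 5776 and 2494. The part of these shifts in the members' differences was not tested beyond the within-class values that follow.

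Mixed barcodes took over the channel genes in the high bins. Pericyte-like cells gave 95.7% and 94.6% of Kcnj8 UMIs in ATV-TfR negative libraries but 25.1% and 21.3% in the high ones, where mixed barcodes gave 66.1% and 68.4%. In ATV-CD98hc the pericyte-like share went from 93.7% and 95.9% to 11.4% and 22.7%, and the mixed share reached 74.4% and 63.7%. Among all barcodes with the pericyte markers, the mixed ones were 0.538% and 1.56% in ATV-TfR negative, 12.2% and 3.45% in low, 36.8% and 30.1% in medium and 73.6% and 74.1% in high libraries. In ATV-CD98hc they were 0.855% and 1.09%, 33.3% and 33.1%, 76.0% and 69.4%, and 86.9% and 74.7%. The mixed share thus lay higher in every high than in every low library of both ATVs. In control IgG, where about 1% of cells were positive, it was 22.9% in the negative library and 74.4% and 91.8% in the low ones, so a high mixed share was not particular to the ATVs. Mixed barcodes held 503 ± 121 CPM of Kcnj8, 613 ± 58.3 CPM of Abcc9 and 248 ± 29.4 CPM of Pdgfb (n = 6 pools), each between the pericyte-like and endothelial-like levels. Whether they are pericytes captured with endothelial cells was not tested. The score cut-off for removing doublets was set by another rule in the ATV high than in the negative libraries. The part of this in the mixed share was not tested.

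**Figure D3:**
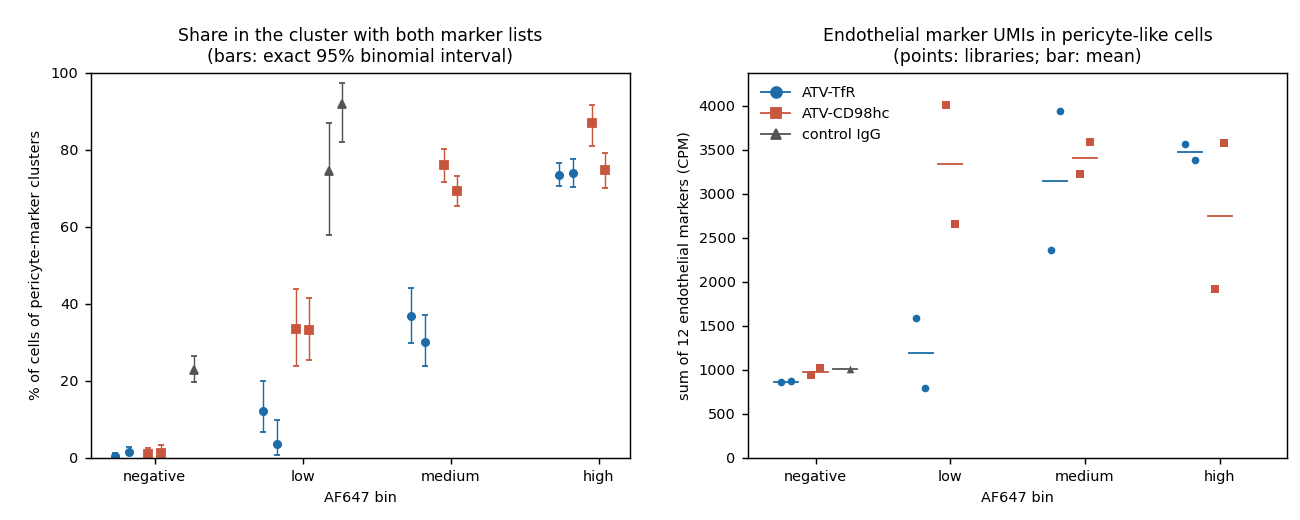
Left, share of barcodes with pericyte markers that fell in the mixed cluster, in percent, by AF647 bin and treatment, with exact 95% binomial intervals that cover counting error only. Right, summed CPM of the 12 endothelial markers in pericyte-like cells, with points for libraries and bars for their mean. The mixed share climbs from at most 1.56% in the ATV negative libraries to at least 73.6% in the high ones, and the endothelial markers within pericyte-like cells are higher there too.

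Mixed barcodes gave 63.7% to 74.4% of Kcnj8 UMIs in the ATV high libraries but 0.0222% to 1.26% in the negative ones, so leaving them out of the sums deepens its fall by construction. As a description added after the data were seen, with mixed and unnamed barcodes left out Kcnj8 read -2.38 in ATV-TfR and -2.76 in ATV-CD98hc on the log2 scale. Abcc9 read -1.93 and -2.08, and Anpep -2.33 and -1.37.

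Other sources stood behind the remaining members. Rgs5 UMIs came from endothelial-like cells to 0.441% and 0.155% in ATV-TfR negative but to 61.8% and 67.0% in high libraries, and to 0.858% and 0.359% against 75.6% and 73.2% in ATV-CD98hc. Microglia-like cells gave the largest share of Pdgfb UMIs in the ATV negative libraries, 78.7% and 70.1% in ATV-TfR and 59.1% and 41.4% in ATV-CD98hc, where endothelial-like cells gave 25.3% and 37.7%. In the control IgG negative library it was 12.5%, against 77% from endothelial-like cells. In the ATV high libraries 94.3% to 96.3% of Pdgfb UMIs came from endothelial-like cells. Notch3 of the ATV low bins was mainly astrocytic, 78.6% and 85.5% in ATV-TfR and 86.2% and 82.0% in ATV-CD98hc. In the control IgG low libraries astrocyte-like cells gave 0.943% and 0.662% of it and mixed barcodes 55.7% and 52.3%. In control IgG high libraries border macrophage-like cells gave 81.2% of Pdgfb in each pool, and fibroblast-like cells gave 89.6% and 95.7% of Anpep and 96.7% and 97.1% of Pdgfrb.

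Within pericyte-like cells no mural member was called between high and negative bins of either ATV. Kcnj8 read 1658 and 1443 CPM in ATV-TfR negative and 1626 and 1301 CPM in high libraries, and 1198 and 1773 against 1242 and 1562 CPM in ATV-CD98hc. Abcc9 read 1311 and 1373 against 1290 and 1398 CPM, and 1625 and 1260 against 1529 and 1281 CPM. The high and negative values of both genes overlapped under both ATVs. The 5 mural members and Anpep gave log2 differences of -0.29 to 0.12 in ATV-TfR (SE 0.19 to 0.23) and of -0.20 to 0.05 in ATV-CD98hc (SE 0.20 to 0.26), with none called. Pdgfrb, at 1942 and 1967 against 1527 and 1893 CPM in ATV-TfR and 2012 and 1847 against 1672 and 1753 CPM in ATV-CD98hc, gave -0.19 (SE 0.19, adjusted p = 1) and -0.20 (SE 0.20, adjusted p = 0.974). It was lower in the high library of all 4 pools, without overlap in either ATV, though the differences were within the error of the fit. In the low bins most of these genes read lower. In ATV-CD98hc, Pdgfrb was at 1378 and 1403 CPM, Notch3 at 614 and 806 CPM and Abcc9 at 849 and 1095 CPM in low libraries, each below both negative libraries, from 62 and 95 cells. No test was set for the low bins.

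Pdgfb was the member called in pericyte-like cells, 1 of 7 in ATV-TfR, where 2.43% of all genes were called. It read 6.16 and 8.13 CPM in the negative libraries, from 16 and 13 UMIs, and 45.1 and 18.5 CPM in the high ones, from 27 and 8 UMIs. Both high libraries lay above both negative ones, with a log2 difference of 2.24 (SE 0.43, adjusted p = 9.06e-04). Without pool 1 it was 1.17 and not called (adjusted p = 1). In ATV-CD98hc it read 11.3 and 11.6 CPM in negative and 31.9 and 52.9 CPM in high libraries, the first of these from 2 UMIs of 23 cells (2.04, SE 0.60, adjusted p = 0.151), and 0 members were called of 7, against 0.768% of all genes. By edgeR's unadjusted p below 0.05 it was 1 of 7 members, Pdgfb, against 605 of 10027 genes, and DESeq2 called 0 members. The summed endothelial marker level of the same pericyte-like cells was 862 to 1012 CPM in the negative and 1911 to 3579 CPM in the ATV high libraries, so Pdgfb rose together with markers of another cell type, and their part in it was not tested. The difference between the 2 ATVs was called for 0 members by edgeR's quasi-likelihood test and 0 by DESeq2, and for 0% of all genes. At edgeR's unadjusted p below 0.05 it was 0 members, against 313 of 10027 genes.

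Endothelial-like cells held more Rgs5 in the high than in the negative bins of both ATVs. It read 164 and 71.4 CPM in ATV-TfR negative, 128 and 136 in low, 314 and 304 in medium and 449 and 456 CPM in high libraries. In ATV-CD98hc it read 249.3 and 91.1, 235 and 259, 367 and 435, and 358 and 466 CPM. In both ATVs each high library lay above each negative one. The log2 difference was 2.07 (SE 0.30, adjusted p = 2.78e-05) in ATV-TfR and 1.37 (SE 0.31, adjusted p = 0.00724) in ATV-CD98hc, and Rgs5 was the 1 member called in each, against 10.2% and 5.23% of all genes. For ATV-CD98hc it was 0.53 and not called without pool 2 (adjusted p = 0.461) and 2.55 without pool 1 (adjusted p = 2.85e-06). The negative values come from 124 and 80 cells in ATV-TfR and 80 and 59 in ATV-CD98hc, with 16 to 86 Rgs5 UMIs, and with doublets kept the ATV-TfR difference was 1.17 (adjusted p = 0.0075).

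Of the other mural members none was called, and their errors were wide at the few UMIs of the negative libraries. In ATV-TfR, Kcnj8 gave 1.09 (SE 1.35), Abcc9 0.40 (SE 0.56), Notch3 -0.25 (SE 0.70) and Pdgfrb -0.03 (SE 0.85). In ATV-CD98hc, Notch3 gave 1.13 (SE 1.38), Abcc9 0.39 (SE 0.76) and Pdgfrb -0.27 (SE 1.18). The summed pericyte and smooth muscle markers of the same cells read 304 and 391 CPM in ATV-TfR negative and 183 and 157 CPM in high libraries, and 331 and 916 against 96.3 and 172 CPM in ATV-CD98hc. In cells without a UMI of any pericyte or smooth muscle marker the Rgs5 difference was 2.95 in ATV-TfR and 2.75 in ATV-CD98hc. Choosing cells by the absence of marker UMIs favours shallow cells and can leave stray Rgs5 RNA in. The part of mural RNA in the difference was not tested. Bins held different endothelial clusters: cluster 17 was the largest in the ATV negative libraries and cluster 19 (pool 1) or 18 (pool 2) in the high ones. Over all their cells, clusters 17, 18 and 19 read 388, 593 and 392 CPM of Rgs5. In control IgG, Rgs5 read 419 CPM in the negative library, where cluster 19 was the largest, 238 and 263 CPM in low and 118 and 111 CPM in medium libraries, so it did not rise with the bin there.

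Pdgfb did not follow the bins within endothelial-like cells. It read 347 and 493 CPM in ATV-TfR negative and 362 and 375 CPM in high libraries (log2 difference 0.03, SE 0.19, adjusted p = 0.942), and 531 and 472 against 384 and 416 CPM in ATV-CD98hc (-0.16, SE 0.19). Groups overlapped in ATV-TfR, and in ATV-CD98hc both high libraries lay lower, within the error of the fit. Kcnj8 in ATV-CD98hc gave -2.60 (SE 0.91, adjusted p = 0.119), and with the pool as a block -2.65 (adjusted p = 0.00451). That value rests on 10 UMIs in 3 of 59 cells of negative pool 2, with 0 UMIs in negative pool 1, where a count of 0 allows up to 10.7 CPM. The change of ATV-TfR minus that of ATV-CD98hc was called for 0 members by edgeR's quasi-likelihood test, against 0.0195% of all genes. At edgeR's unadjusted p below 0.05 it was 1 member, against 837 of 15422 genes, and DESeq2 called 0 members. Rgs5 gave 0.70 (SE 0.44, adjusted p = 0.925). Over 15 alternatives that value ran from -0.56 to 1.46, with the other sign in 2 and a lowest adjusted p of 0.0908.

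**Figure D4:**
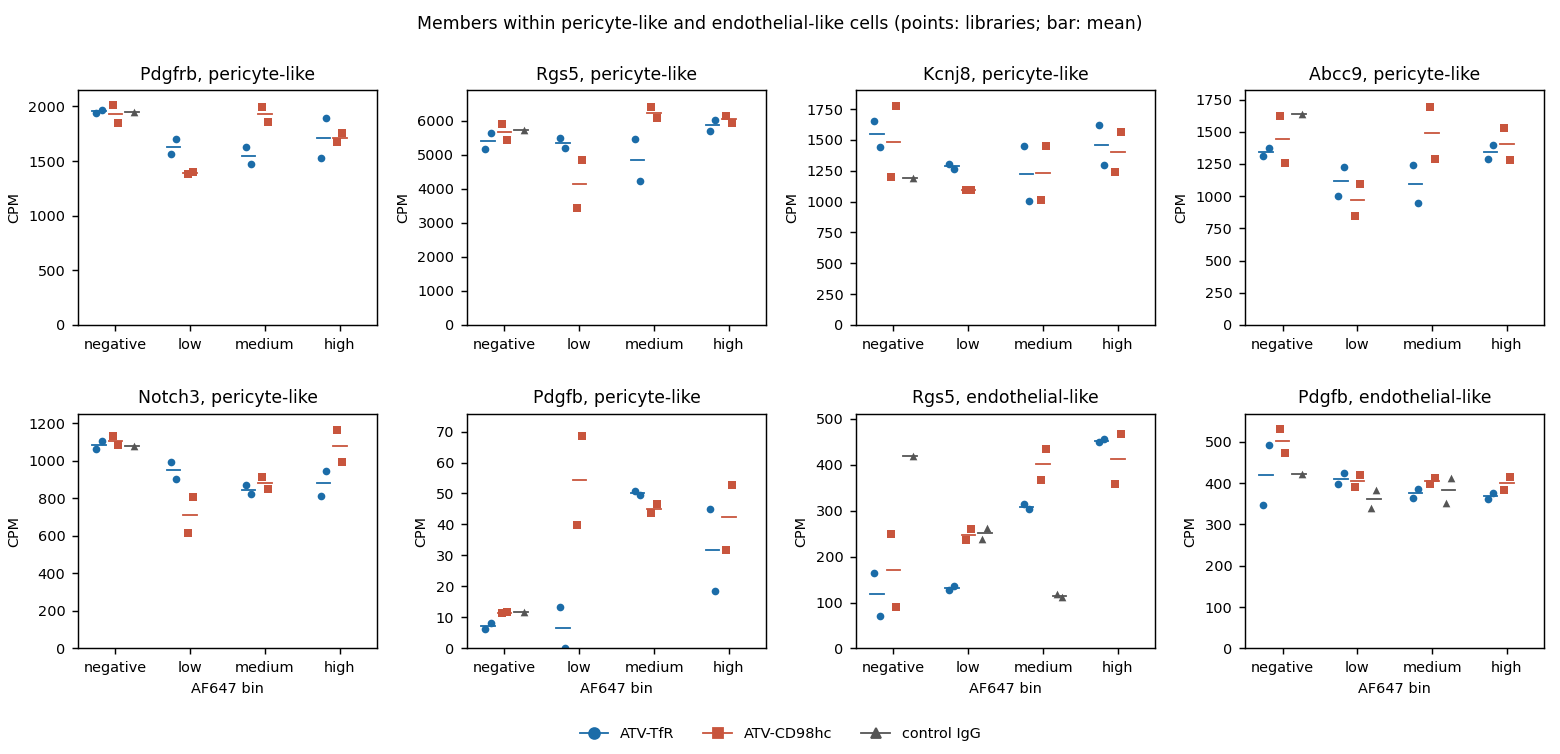
Level in CPM by AF647 bin and treatment, for 6 genes in pericyte-like cells and for Rgs5 and Pdgfb in endothelial-like cells. Points are libraries with at least 20 cells of the class and bars their mean. In pericyte-like cells Pdgfb of the ATVs is higher and Pdgfrb slightly lower in the high than in the negative bins, and in endothelial-like cells Rgs5 of the ATVs climbs to 358 to 466 in the high bins.

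In astrocyte-like cells Notch3 rose over the bins of ATV-CD98hc. It read 45.2 and 40.0 CPM in negative, 59.3 and 58.5 in low, 75.2 and 78.0 in medium and 117 and 88.6 CPM in high libraries, the latter from 182 and 206 cells. Each bin lay above the one before it with no overlap, and the log2 difference of high minus negative was 1.24 (SE 0.14, adjusted p = 8.38e-06). In ATV-TfR it read 39.6 and 42.1, 44.3 and 43.2, 52.0 and 47.8, and 49.9 and 46.0 CPM, and the difference of 0.35 (SE 0.12, adjusted p = 0.0576) passed with the pool as a block (adjusted p = 0.0460). It also passed there without ATV-CD98hc pool 1 (0.0280) or pool 2 (0.0309). The control IgG negative library read 50.6 CPM. The test of the difference between the 2 ATVs gave -0.88 (SE 0.18, adjusted p = 0.00523), the 1 member called, against 7.25% of all genes. It missed the threshold without ATV-CD98hc pool 1 (-0.73, adjusted p = 0.0512), ATV-TfR pool 1 (-1.04, adjusted p = 0.0581) or ATV-TfR pool 2 (-0.75, adjusted p = 0.147). Heyl, a Notch target gene and the gene most like Notch3 across classes, moved alike, by 1.53 (SE 0.22, adjusted p = 1.3e-04) in ATV-CD98hc and 0.59 (SE 0.20, adjusted p = 0.047) in ATV-TfR. Other genes of the Notch list are not given for astrocyte-like cells, and the part of mural RNA in Heyl was not tested.

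Pdgfrb of astrocyte-like cells did not rise with Notch3. It read 98.3 and 103 CPM in ATV-CD98hc negative and 75.7 and 84.1 CPM in high libraries (-0.37, SE 0.14, adjusted p = 0.112), and 84.3 and 83.3 against 80.4 and 95.6 CPM in ATV-TfR. Pdgfb and Rgs5 rose in ATV-TfR, from low levels. Pdgfb read 1.28 and 1.02 CPM in negative and 7.62 and 2.21 CPM in high libraries, from 5 to 24 UMIs each, and Rgs5 11.1 and 4.09 against 23.8 and 35.9 CPM, with no overlap for either gene. The log2 difference was 2.32 for Pdgfb (SE 0.52, adjusted p = 0.00463) and 2.09 for Rgs5 (SE 0.42, adjusted p = 0.00188). Pdgfb was not called without ATV-TfR pool 1 (1.19, adjusted p = 0.576), and Rgs5 was not without pool 2 (1.26, adjusted p = 0.189) and read 3.21 without pool 1 (adjusted p = 0.00894). In ATV-CD98hc Rgs5 read 4.71 and 5.39 CPM in negative and 11.4 and 42.1 CPM in high libraries and gave 2.32 (SE 0.63, adjusted p = 0.0272; 1.25 and adjusted p = 0.599 without pool 2). In all, 2 of 5 members tested were called in each ATV, against 16.5% of all genes in ATV-TfR and 7.80% in ATV-CD98hc. The summed endothelial markers in the same astrocyte-like cells were 10.4 to 14.2 CPM in the ATV negative libraries, 585 and 364 CPM in ATV-TfR high and 203 and 293 CPM in ATV-CD98hc high libraries. Their part in the higher Pdgfb, Rgs5 and Notch3 was not tested. The summed pericyte and smooth muscle markers of these astrocyte-like cells read 130 and 123 CPM in ATV-CD98hc negative and 169 and 156 CPM in high libraries, and their part in the rise of Notch3 was not tested.

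**Figure D5:**
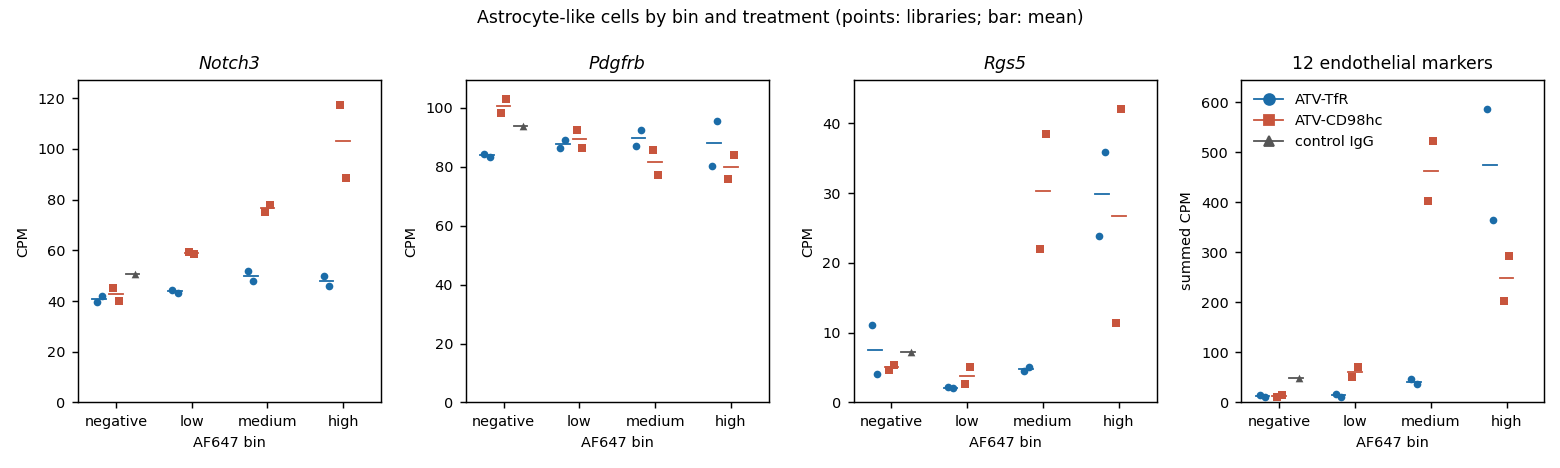
Level of Notch3, Pdgfrb and Rgs5 and the summed level of 12 endothelial markers in astrocyte-like cells, in CPM, by AF647 bin and treatment. Points are libraries with at least 20 such cells and bars their mean. Notch3 is highest in the ATV-CD98hc high bin, at 117 and 88.6, and the endothelial markers are higher in the high than in the negative bins of both ATVs.

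In choroid plexus epithelial-like cells Pdgfb rose under both ATVs. It went from 21.1 and 16.7 to 70.0 and 39.6 CPM in ATV-TfR (1.40, SE 0.35, adjusted p = 0.00447), and was not called without pool 1 (1.13, adjusted p = 0.209). In ATV-CD98hc it went from 19.3 and 12.0 to 46.8 and 63.3 CPM (1.44, SE 0.40, adjusted p = 0.00727), with 1.00 without pool 2 (adjusted p = 0.0836) and 2.19 without pool 1 (adjusted p = 0.0175). High and negative libraries did not overlap. Notch3 of ATV-TfR went from 12.0 and 10.5 CPM to 3.69 and 1.84 CPM (-2.12, SE 0.65, adjusted p = 0.0187), from 2 to 16 UMIs a library, and was not called without pool 1 (adjusted p = 0.172) or pool 2 (0.208) or by DESeq2 (0.0752). Of 6 members tested there, 2 were called in ATV-TfR, 2 in ATV-CD98hc (Pdgfb and Rgs5) and 4 in control IgG (Pdgfrb, Rgs5, Kcnj8 and Notch3, all lower in the high bin), against 23.3%, 30% and 8.65% of all genes. Without control IgG pool 1, Kcnj8 (adjusted p = 0.0983) and Notch3 (0.0503) were not called in control IgG. Rgs5 of ATV-CD98hc read 1.02 and 0 CPM in negative and 30.8 and 67.7 CPM in high libraries. In control IgG, whose negative group is 1 library, it read 85.8 CPM there and was at 0 UMIs in both high libraries. The endothelial markers of these choroid plexus cells read 94.1 and 94.2 CPM in ATV-TfR negative and 4694 and 1671 CPM in high libraries, and 73.1 and 51.1 against 2153 and 2076 CPM in ATV-CD98hc. In control IgG they read 515 CPM in the negative and 100.4 and 128 CPM in the high libraries. The pericyte and smooth muscle markers read 525 and 390 CPM in ATV-TfR negative and 121 and 131 CPM in high libraries, and 278 against 87.5 and 34.6 CPM in control IgG. The part of either marker list in these differences was not tested. The difference between the 2 ATVs was called for 0 of these members by edgeR's quasi-likelihood test, against 0.0236% of all genes. At edgeR's unadjusted p below 0.05 it was 1 member, against 987 of 12695 genes, and DESeq2 called 0 members.

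Rgs5 was also called in border macrophage-like cells of ATV-TfR, 1 of 3 members tested, against 9.92% of all genes. It read 4.11 and 0 CPM in negative and 227 CPM in each high library (adjusted p = 2.49e-04, and 0.0711 without pool 1). The endothelial markers of these cells read 32.9 and 12.5 CPM in negative and 11008 and 10691 CPM in high libraries, and their part in it was not tested. In control IgG the order was the reverse, with 90.6 CPM in the negative and 1.10 and 4.26 CPM in the high libraries, 1 of 3 members called against 6.21% of all genes, again with 1 negative library. In fibroblast-like cells of ATV-CD98hc Rgs5 read 0 UMIs in both negative and 21.0 and 91.5 CPM in high libraries, 1 of 7 members called against 6.01% of all genes, and it was not called without any 1 of the 4 ATV pools (adjusted p = 0.0566 to 0.271). The endothelial markers of these fibroblast-like cells read 673 and 598 CPM in negative and 2515 and 4115 CPM in high libraries, and their part in it was not tested. In fibroblast-like cells of control IgG, Abcc9 read 14.6 CPM in the negative and 42.9 and 69.2 CPM in the high libraries (2.02, SE 0.59, adjusted p = 0.0307), 1 of 7 members called against 9.39% of all genes, and DESeq2 did not call it (adjusted p = 0.0781). That test also has 1 negative library. The pericyte and smooth muscle markers of these control IgG cells read 4751 CPM in the negative and 1052 and 678 CPM in the high libraries, and their part in it was not tested. Microglial Pdgfb read 164 and 135 CPM in negative and 177 and 263 CPM in high libraries of ATV-CD98hc (0.51, SE 0.23, adjusted p = 0.229), the latter from 73 and 32 cells. Over 10 alternatives the difference ran from 0.19 to 1.01, with a lowest adjusted p of 0.1245 (quasi-likelihood test or DESeq2). The endothelial markers of these cells read 122 and 47.5 CPM in negative and 3845 and 2551 CPM in high libraries, and their part in it was not tested. Pdgfb was higher in both high libraries, but 0 of 3 members were called there by edgeR's quasi-likelihood test, against 6.23% of all genes. At edgeR's unadjusted p below 0.05 it was 1 member, against 2174 of 12336 genes, and DESeq2 called 0 members. In ependymal-like cells of ATV-CD98hc 0 of 2 members tested were called (0 at unadjusted p below 0.05, 0 by DESeq2), against 12.3% of all genes.

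Between treatments, with the bins of a pool summed, no member was called in endothelial-like, pericyte-like or smooth muscle-like cells by edgeR's quasi-likelihood test or by DESeq2. At edgeR's unadjusted p below 0.05, 3, 1 and 0 of 7 members passed in endothelial-like cells for ATV-TfR minus control IgG, ATV-CD98hc minus control IgG and ATV-TfR minus ATV-CD98hc. Of all 16675 genes 1210, 733 and 362 did. The first and second of these comparisons share the control IgG pools. For ATV-TfR minus ATV-CD98hc, 1 of 7 members passed in pericyte-like cells, against 392 of 11574 genes. In smooth muscle-like cells it was 1 of 7, against 776 of 11669 genes. Control IgG has 1 pool in these 2 classes, so its unadjusted counts are not given there. In pericyte-like cells Kcnj8 read 1615 and 1333 CPM in ATV-TfR, 1148 and 1525 CPM in ATV-CD98hc and 1191 CPM in control IgG, and Abcc9 1283 and 1295, 1527 and 1241, and 1632 CPM. For Kcnj8 the 2 ATV-CD98hc pools lay further apart than the means of the treatments. For Abcc9 the control IgG pool lay above all 4 ATV pools. For ATV-TfR minus control IgG, Kcnj8 gave 0.31 (SE 0.28) and Abcc9 -0.34 (SE 0.26). Pdgfrb read 1827 and 1852, 1906 and 1754, and 1949 CPM. The share of all genes called in pericyte-like cells was 0% for ATV-TfR minus control IgG, 0.112% for ATV-CD98hc minus control IgG and 0.0173% for ATV-TfR minus ATV-CD98hc. Pdgfb of ATV-CD98hc minus control IgG gave 1.41 (SE 0.42, adjusted p = 0.346) and passed without ATV-TfR pool 1 (adjusted p = 0.0415) or pool 2 (0.0459), but was near 0 with negative bins alone.

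Endothelial Pdgfb was alike in level across treatments, 363 and 377 CPM in ATV-TfR, 393 and 415 CPM in ATV-CD98hc and 341 and 401 CPM in control IgG, with log2 differences of 0.08, 0.16 and -0.07 (SE 0.18) and 0% of all genes called in each of the 3 comparisons (1210, 733 and 362 genes at edgeR's unadjusted p below 0.05, and 184, 93 and 9 called by DESeq2). Endothelial Rgs5 read 430 and 438, 358 and 440, and 236 and 332 CPM, and gave 0.70 for ATV-TfR minus control IgG (SE 0.22, adjusted p = 0.488) and 0.53 for ATV-CD98hc minus control IgG (SE 0.22, adjusted p = 1). With negative bins alone, where control IgG has 1 library, the signs turned, to -1.76 and -1.21. That library held 2509 endothelial-like cells with cluster 19 the largest. The ATV negative libraries held 59 to 124 such cells each, with cluster 17 the largest. In smooth muscle-like cells Abcc9 read 23 and 24.8 CPM in ATV-TfR, 64.2 and 16 CPM in ATV-CD98hc and 41.8 CPM in control IgG. The 2 ATV-CD98hc pools lay on both sides of all others, and ATV-TfR minus ATV-CD98hc gave -0.89 (SE 0.29, adjusted p = 0.341), against 0.686% of all genes called. It was -1.39 (adjusted p = 3.17e-08) without ATV-CD98hc pool 2 and 0.59 (adjusted p = 0.754) without pool 1. The background was 0.00857% for ATV-TfR minus control IgG and 0.12% for ATV-CD98hc minus control IgG.

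The wider lists are read against the 62.4% of all genes called in whole bins of ATV-TfR and the 62.6% called in those of ATV-CD98hc, so that many calls in a list are usual there. In the ATV-TfR high bins 2 of 6 PDGF family genes rose and 4 fell. They included Pdgfd at 2.97 (SE 0.30), Pdgfc at -2.82 (SE 0.18) and Pdgfra, the receptor of oligodendrocyte precursors and fibroblasts, at -3.56 (SE 0.26). Of 17 genes of PDGF receptor signalling, 10 were higher and 3 lower, with Plcg1 at 1.77, Nck1 at 1.48, Mapk3 at 1.46 and Pik3r1 at -1.66. Of 17 channel genes of mural cells, 1 was higher and 14 lower, among them the calcium channel genes Cacna1d (-2.90) and Cacna1h (-2.39) and Ano1 (-1.81). Of 15 vasoactive receptors and cyclic GMP enzymes 12 were lower, with the endothelin receptor gene Ednra at -2.21, Adora2b at -2.56, Gucy1a1 at -2.27 and Pde3a at -4.09. The medians were -2.14 for channels, -2.21 for vasoactive genes and 0.42 for signalling, against -0.34 over all genes tested. In ATV-CD98hc they were -2.22, -2.37 and 0.68 against -0.29, with 1 higher and 16 lower channel genes.

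Of 19 genes of the RGS list, which includes Rgs7bp, the gene of an RGS-binding protein, 3 rose and 12 fell in ATV-TfR (Rgs10 -4.81, Rgs12 3.73, Rgs7bp -3.57, Rgs2 -4.31), Notch pathway genes 6 and 7 of 18 (Dll4 5.17, Jag2 4.35, Notch4 3.54, Hey2 -2.34), and peptidases 2 and 4 of 9 (Dpp4 4.26, Ece1 2.15, Cpe -1.24, Enpep -1.23). Cpe encodes carboxypeptidase E, an enzyme of secretory granules, while the other 3 peptidases named act at the cell surface or outside the cell. Dll4, Jag2 and Notch4 are Notch genes of endothelium. Within endothelial-like cells of ATV-TfR, of 18 Notch genes tested 6 fell and 0 rose, where 10.2% of all genes were called. Those that fell included the arterial gene Hey2 (-3.41), Dll1 (-2.60), Nrarp (-2.10) and Jag1 (-1.96). In ATV-CD98hc 1 of the 18 rose and 3 fell, where 5.23% of all genes were called, with Jag1 at -1.52, Hey1 at -1.19, Jag2 at -1.11 and Hes1 at 1.27. Pdgfa, which encodes the A chain, fell in endothelial-like cells of both ATVs, by 1.66 (SE 0.24) and 2.37 (SE 0.25), where Pdgfb did not pass. The endothelial-like cells of the ATV negative libraries behind these list values were 59 to 124 a library and had another largest cluster than those of the high bins. Their summed pericyte and smooth muscle markers, 304 to 916 CPM, were above the 96.3 to 183 CPM of the high libraries, and the part of either in these differences was not tested. Rgs12 rose with Rgs5, by 1.42 in ATV-TfR and 0.88 in ATV-CD98hc, while none of the 17 signalling genes passed in ATV-TfR. In pericyte-like cells of ATV-TfR, Jag2 (5.81, SE 0.98), 1 of 16 Notch genes tested, and Rgs12 (2.18, SE 0.30), 1 of 10 RGS genes, were higher beside Pdgfb, 1 of 5 PDGF genes. The other 4 lists had 0 calls there, where 2.43% of all genes were called, and in ATV-CD98hc, where 0.768% were, all 7 lists had 0. The endothelial markers of these pericyte-like cells were higher too, at 1911 to 3579 CPM in the ATV high against 862 to 1012 CPM in the negative libraries, and their part in it was not tested. The lists were fixed with earlier results of these data known, and their counts are descriptions.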

How the data were processed

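RNA of single cells from 23 libraries was counted. The authors deposited whole-number UMI counts of 32285 genes in 265025 barcodes, with no normalization, and files (unit: other) that list barcodes, genes and libraries. Cell Ranger 7.1.0, Seurat 4 and 5 and the builds mm10 and GRCm38 are named per the submitters' processing notes, which state no settings here.

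Barcodes that reached 500 genes and 800 UMIs with no more than 10% mitochondrial UMIs were kept (249715), and Scrublet (scanpy 1.11.5) removed 15689 as doublets, 0.690% to 12.2% per library. Its automatic threshold was used in 15 libraries and percentile 94 of the score in 8. The percentile was used in every ATV high library and the automatic threshold in every negative library. High minus negative of the ATVs thus compares libraries cleaned by different rules. Beyond the fits with doublets kept, the part of this in the results was not tested. Libraries held 1861238 to 90307818 UMIs. Counts were log-normalised, and 2000 variable genes without the 7 members, 50 principal components and 15 neighbours were used for Leiden clustering at resolution 1 (leidenalg 0.10.2, igraph 0.11.9, Python 3.11.15), named from marker lists that hold none of the members. A name needed at least 3 detected markers and a share of 0.5 of its list.

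UMIs were summed per class and library (at least 20 cells), or per pool for levels and treatments, and tested with edgeR 4.0.16's quasi-likelihood test (R 4.3.3, TMM factors, filterByExpr). All adjusted p-values are Benjamini-Hochberg over all genes tested in that comparison, all differences between groups are on the log2 scale, and a call is an adjusted p below 0.05. The differences carry the TMM factors and the CPM values do not, so the 2 can differ in size and, for small differences, in sign. The factors are estimated anew when a pool is left out. Each fit estimates 1 spread per gene over all its groups with 2 libraries or pools, and the p-values of every comparison rest on it. It is a spread between pools of 2 mice, shared over bins and treatments. Bins of the same mice count as independent libraries, except with the pool as a block. Groups with 1 library or pool (control IgG negative bins, control IgG in pericyte-like and smooth muscle-like cells, ATV-CD98hc in 1 ependymal-like bin) borrow their spread from the other groups and are assumed to vary like them. The fit was tried on simulated counts of independent libraries with a fixed spread and known changes in well-counted genes only. That setting has no pool effect and does not cover members at few UMIs. Intervals and floors (3 UMIs) cover counting error only.

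Same-numbered bins of a treatment come from the same mice, per the labels, so the pool number pairs bins. The deviations of such bins correlated by -0.067 to 0.824 over 40 pairs. Between treatments pools share only a number.

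The members and lists were chosen with earlier results of these data known. The text names all 7 members, of each list up to 4 called genes with the smallest p, and per member the 3 genes most alike by Pearson's r over genes reaching 10 CPM. Of the genes this rule names, 2 are not reported here. Alternatives were DESeq2 1.42.0, RLE factors, no filter, each pool left out, the pool as a block, doublets kept, resolution 2, cells free of other markers, negative bins alone, and, chosen after seeing the data, control IgG left out of the fit and named classes alone.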

Additional observations from a re-analysis of the deposited data

Results flagged for a closer look

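The whole bin rise of Pdgfb differed between the 2 ATVs, with a log2 difference of -1.37 (SE 0.28, adjusted p = 0.00336) for the ATV-TfR change minus the ATV-CD98hc change. The negative bins differed more than the high ones, at 50.5 and 42.0 CPM in ATV-TfR against 20.4 and 17.4 CPM in ATV-CD98hc, and 324 and 346 against 351 and 383 CPM in the high bins. It was the 1 member called, against 12.3% of all genes, and was not called without ATV-CD98hc pool 2 (-1.10, adjusted p = 0.0811) or ATV-TfR pool 1 (-1.14, adjusted p = 0.154). Microglia-like cells gave 78.7% and 70.1% of the Pdgfb UMIs of the ATV-TfR negative libraries and 59.1% and 41.4% in ATV-CD98hc, and their part in the difference was not tested.

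The rise of Notch3 in astrocyte-like cells differed too, by -0.88 (SE 0.18, adjusted p = 0.00523), smaller in ATV-TfR, where the rise itself was not called (0.35, adjusted p = 0.0576). The difference was not called without ATV-CD98hc pool 1 (adjusted p = 0.0512), ATV-TfR pool 1 (0.0581) or ATV-TfR pool 2 (0.147). The endothelial markers of these cells read 10.4 to 14.2 CPM in the ATV negative libraries, 585 and 364 CPM in ATV-TfR high and 203 and 293 CPM in ATV-CD98hc high libraries, and the pericyte and smooth muscle markers read 130 and 123 against 169 and 156 CPM in ATV-CD98hc. Their part in the difference was not tested.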

How the results depend on the processing

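With the pool as a block, ATV-CD98hc gave 2 called members in endothelial-like cells in place of 1, as it did under DESeq2 and with no filter on low counts, and 0 to 2 with a pool left out. The count for the whole bin difference between ATVs was 0 to 1 with a pool left out, and that for pericyte-like cells of ATV-TfR 0 to 1. No share of all genes called in the same setting stands beside the counts of this paragraph, so they say little about the members as a set. Between treatments, negative bins alone leave 1 control IgG library, so called members are not counted for that setting. Pericyte-like cells gave 1 (Pdgfb) for ATV-CD98hc minus control IgG with no filter, 1 with the pool number as a block, and 0 to 1 with a pool left out.

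Among values called in at least 1 setting, signs turned for Kcnj8 in endothelial-like cells of ATV-CD98hc (-2.60), which gave 0.0829 with doublets kept and -3.55 to 8.24 with a pool left out. They turned for endothelial Rgs5 with negative bins alone, to -1.76 for ATV-TfR and -1.21 for ATV-CD98hc minus control IgG, and for pericyte Pdgfb of ATV-CD98hc minus control IgG, to -0.0073. In smooth muscle-like cells Abcc9 of ATV-CD98hc minus control IgG (0.11) gave -0.0622 under DESeq2, -0.33 with the block and -1.39 to 0.59 with a pool left out, Abcc9 of ATV-TfR minus ATV-CD98hc -1.39 to 0.59 and Kcnj8 -0.75 to 0.52. Other blocked fits changed only the calls given in the report.

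Levels shifted by more than 1 SD between pools with negative bins alone for Pdgfb (453 CPM) and Rgs5 (199 CPM) in endothelial-like and Pdgfrb (1943 CPM), Notch3 (1092 CPM) and Anpep (201 CPM) in pericyte-like cells, and with doublets kept for Rgs5 (5754 CPM) and Anpep (200.3 CPM) in pericyte-like cells. Shares thinned to 1500 UMIs a cell cover only cells of at least that depth, 94488 endothelial-like and 3681 pericyte-like. The shares given with the levels by class are over all cells. Thinned, a UMI was found in 43.2% (Pdgfb) and 22.4% (Rgs5) of these endothelial-like cells. In these pericyte-like cells it was 92.3% (Pdgfrb), 78.8% (Kcnj8), 79.9% (Abcc9), 99.4% (Rgs5), 74.2% (Notch3) and 25.01% (Anpep). Over classes and single libraries, 1 of the 3 genes most like Pdgfb and 1 of those most like Pdgfrb recurred. For differences called in at least 1 setting, 532 of 619 alternative values of members kept sign and side of the threshold. A further 141 differences of members were called in no setting, with a lowest adjusted p of 0.052, and 161 of their 1696 alternative values had the other sign. Among these, in endothelial-like cells, were Notch3 of ATV-CD98hc (1.13, from -1.58 to 8.76), Kcnj8 of ATV-TfR (1.09, from -1.08 to 9.22) and Rgs5 of ATV-TfR minus ATV-CD98hc (0.70, from -0.56 to 1.46). The cause was not tested in any case. High minus negative in pericyte-like cells without endothelial UMIs could not be fitted. Depth limits members in endothelial-like cells of ATV negative bins (59 to 124 cells) and in pericyte-like cells of ATV-CD98hc high pool 1 (23 cells).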
